A study of Mus musculus with 12 samples.

Results

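Bmp4, the 4 Id genes, Smad6, Msx1 and Msx2 are 8 genes of the bone morphogenetic protein (BMP) pathway, measured here by RNA-seq in mouse embryonic stem cells. They were found by matching these symbols, ignoring case, in a table of 22416 genes, and all 8 were present. When the MEK and GSK3 inhibitors were left out, Bmp4 rose in both genotypes, to a mean of 15.8 CPM (counts scaled to a common library size) in knock-in cells in LIF, against 2.64 CPM in knock-in cells in LIF/2i, and to 33.4 CPM in wild-type cells in LIF, against 0.443 CPM in wild-type cells in LIF/2i. Id1 and Smad6 rose in wild-type cells under the same comparison. Between genotypes edgeR called no member in either medium, while DESeq2 called Bmp4 and Id3 in LIF/2i.

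BMP4 is a secreted ligand that brings together type I and type II receptor kinases. These phosphorylate SMAD1, SMAD5 and SMAD9, which enter the nucleus with SMAD4 and turn on the Id genes. ID proteins are helix-loop-helix proteins without a DNA-binding region, and they hold E proteins away from their target genes. In mouse embryonic stem cells BMP acts together with LIF to sustain self-renewal, and Id genes are known for blocking entry into the neural lineage there. Smad6 encodes an inhibitory SMAD that is induced by BMP and dampens it, and Msx1 and Msx2 encode homeobox transcription factors induced by BMP in many embryonic tissues.

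The knock-in (KI) cells were eIF2α A/A, homozygous for an alanine in place of the serine at which stress kinases modify this subunit of a translation initiation factor. The wild-type (WT) cells were eIF2α +/+. All cells spent 6 days in medium without serum that held leukaemia inhibitory factor (LIF), either alone or with the MEK inhibitor PD0325901 and the GSK3 inhibitor CHIR99021 (LIF/2i). The aim given for the series is to learn how phosphorylated eIF2α governs naive pluripotency. The groups were KI LIF, KI LIF/2i, WT LIF and WT LIF/2i, with 3 RNA-seq libraries each. The labels do not say whether replicates were separate cultures or how many clones of each genotype were used, so that the p-values cover the spread among these libraries alone, and that spread may be technical.

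The 12 libraries held 2307219 to 9713857 counts in coding sequence, so that 3 counts, taken as the floor of a library, stood for 0.309 to 1.3 CPM. The counts of replicates 1 and 3 of WT LIF differed by no more than sampling noise allows (chi-square per degree of freedom 0.858 over 12373 genes) and were counted as 1 sample, which left 2 samples in WT LIF and 3 in each other group. All 8 pluripotency markers were detected in every group, with summed levels of 3285 to 3499 CPM in KI LIF, 3459 to 4146 CPM in KI LIF/2i, 2725 to 2944 CPM in WT LIF and 3480 to 3692 CPM in WT LIF/2i. Of these markers edgeR called Nanog and Zfp42 lower in LIF than in LIF/2i in both genotypes, and Esrrb in KI cells. None was called higher. Nanog averaged 254 CPM in KI LIF, 628 in KI LIF/2i, 310 in WT LIF and 494 in WT LIF/2i. Summed Y-linked counts were 1.43 to 41.6 CPM in the KI libraries, against 44.8 to 261 CPM in the WT libraries. The genotypes thus also differed in this respect, and so did replicates within each genotype. KI replicate 1 had 36.7 CPM (LIF) and 41.6 CPM (LIF/2i), while KI replicates 2 and 3 had 1.43 to 3.90 CPM. WT replicate 2 had 77.6 CPM (LIF) and 44.8 CPM (LIF/2i), while the other WT libraries had 156 to 261 CPM. Whether this split bears on the high Bmp4 and Id3 values of KI LIF/2i replicate 1 was not tested. Eif2s1, the gene of eIF2α, averaged 37.2 CPM in KI LIF, 44.0 CPM in KI LIF/2i, 30.5 CPM in WT LIF and 25.9 CPM in WT LIF/2i, and its counts do not show the base change.

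The 4 Id genes are paralogs, and their likeness bears on how far counts can be assigned to each. The lines below show 60 coding bases of each gene, from GENCODE M21 transcripts (GRCm38). This stretch was chosen, in frame and without gaps, as the one where Id1 was most like the other Id genes. Its identity is therefore not typical of the whole coding sequence. Capitals mark the 42 bases that are identical in all 4.
Id1: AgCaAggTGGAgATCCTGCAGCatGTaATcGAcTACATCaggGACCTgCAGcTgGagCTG
Id2: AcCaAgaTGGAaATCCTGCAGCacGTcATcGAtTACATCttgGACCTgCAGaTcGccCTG
Id3: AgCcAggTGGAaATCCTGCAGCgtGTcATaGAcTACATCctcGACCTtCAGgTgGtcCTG
Id4: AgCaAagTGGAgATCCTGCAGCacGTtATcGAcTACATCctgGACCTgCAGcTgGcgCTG
Counted from the first coding base, the stretch runs from 247 to 306 in Id1, 178 to 237 in Id2, 193 to 252 in Id3 and 265 to 324 in Id4. Id1 and Id4 were the closest pair, with 54 of 60 bases identical (90.0%) and a longest shared run of 17 bases over the whole coding sequence. Every other pair shared 47 to 50 of the 60 bases and no run over 15 bases. No 25-base window of the coding sequences of Bmp4, Id1, Id3, Id4 or Smad6 was found in another gene's transcripts. For Id2, 56 of 441 windows (12.7%) were also in the predicted gene Gm6175, and for Msx1 and Msx2 the figures were 7 of 885 (0.791%) and 5 of 777 (0.644%). Id2 counts are therefore less certain than those of the other Id genes.

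On GRCm38, with GENCODE M21 transcripts, Bmp4 lies on chromosome 14 (46383520 to 46390669, minus strand) with 1224 coding bases. The 4 Id genes lie on chromosomes 2 (Id1, 152736251 to 152737410, plus strand), 12 (Id2, 25095130 to 25096087, minus strand), 4 (Id3, 136143497 to 136145392, plus strand) and 13 (Id4, 48261228 to 48266026, plus strand). Their coding sequences are short, at 504 bases for Id1, 465 for Id2, 357 for Id3 and 483 for Id4. Smad6 lies on chromosome 9 (63953076 to 64022059, minus strand, 1485 coding bases), Msx1 on chromosome 5 (37820485 to 37824583, minus strand, 909 coding bases) and Msx2 on chromosome 13 (53466884 to 53473074, minus strand, 801 coding bases).

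Promoter sequence was taken from RefSeq (GRCm38.p6), where 7 of the 8 members matched and Id1 did not. Some starts used there differ from those of the GENCODE M21 transcripts above. The windows of Id3 (chr4:136143572-136143821) and Msx2 (chr13:53472781-53473030) lie inside those transcripts and not upstream of them. The Id4 window ends some way before the start of its transcript. The 250 bases before the start are printed for Bmp4, called higher in LIF in both genotypes, for Smad6, called higher in WT cells, and for Id4, which was not called and which holds the GC-rich SMAD1/5 motif GGCGCC (capitals). They lie at chr14:46390670-46390919 (minus strand), chr9:64022060-64022309 (minus strand) and chr13:48260866-48261115 (plus strand).
Bmp4: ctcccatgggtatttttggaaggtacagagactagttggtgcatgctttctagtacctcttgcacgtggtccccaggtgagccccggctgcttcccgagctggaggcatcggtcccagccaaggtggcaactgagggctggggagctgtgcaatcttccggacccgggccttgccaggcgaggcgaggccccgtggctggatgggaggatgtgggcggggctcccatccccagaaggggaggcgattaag
Smad6: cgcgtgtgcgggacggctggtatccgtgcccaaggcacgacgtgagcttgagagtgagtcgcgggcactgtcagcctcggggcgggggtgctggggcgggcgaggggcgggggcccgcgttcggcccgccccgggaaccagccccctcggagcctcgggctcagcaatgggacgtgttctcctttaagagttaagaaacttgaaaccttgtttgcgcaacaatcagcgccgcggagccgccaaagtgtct
Id4: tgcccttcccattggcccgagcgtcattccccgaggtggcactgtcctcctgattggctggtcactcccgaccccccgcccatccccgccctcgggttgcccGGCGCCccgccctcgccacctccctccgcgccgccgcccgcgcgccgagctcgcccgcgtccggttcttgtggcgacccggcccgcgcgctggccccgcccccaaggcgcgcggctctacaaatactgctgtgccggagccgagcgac
GGCGCC, which reads the same on both strands, was found in the windows of Id2 (first base at -231 from the start) and Id4 (-148), and in 10.8% of 27025 genes. The palindromic SMAD motif GTCTAGAC was in 0 of the 7 windows and in 0.2% of all genes. CAGCTG, a form of the E-box that E proteins bind, was in the Id2 window (-196) and in 14.7% of all genes. The windows held 61.6% (Msx2) to 75.6% (Id4) G and C, above the upper quartile of all genes (60.8%, median 52.4%). These matches describe letters in a short window, and say nothing of binding.

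A gene was called when its adjusted p was under 0.05 in edgeR's quasi-likelihood test, with Benjamini-Hochberg adjustment over the 13229 genes that passed the count filter. Of the members 7 passed, and Msx1 did not. For LIF over LIF/2i in KI cells, 1 of the 7 was called higher and none lower, where 4.05% of all tested genes were called higher and 9.05% in either direction. For the same comparison in WT cells, 3 of the 7 were called higher and none lower, against 6.3% of all tested genes higher and 13% in either direction. The median log2 fold change of the 7 was 0.32 in KI cells and 1.23 in WT cells, beside -0.03 and 0.01 over all tested genes. For KI over WT in LIF/2i the test called 0 of the 7, beside 2.21% of all genes. DESeq2 called 2 there, and it also called more of all genes than edgeR did. An unadjusted p under 0.05 was found for 3 members, beside 2717 of the 13229 tested genes. For KI over WT in LIF the edgeR test called 0 of the 7, beside 0.144% of all genes, and DESeq2 called 0. No member had an unadjusted p under 0.05 there, beside 1418 of all tested genes. The interaction of genotype and medium called 0 of the 7 and 0 of all tested genes (0%), with 0 members by DESeq2. Here 2 members had an unadjusted p under 0.05, beside 791 of all tested genes. In bulk RNA, fewer cells that express a gene and less RNA per cell cannot be told apart.

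Bmp4 had 8.81, 13.1 and 25.5 CPM in KI LIF, against 4.47, 1.12 and 2.33 CPM in KI LIF/2i. Every KI LIF library lay above every KI LIF/2i library, a separation that 13.7% of all tested genes had in this direction. The change was 2.51 ± 0.53 (log2, SE, here and below), a 5.71-fold rise with an edgeR adjusted p of 0.0133 (n = 3 each). Without KI LIF replicate 3 the Bmp4 call was lost (2.02, adjusted p = 0.0680), and with the replicate number as a block in the KI samples it was kept (2.54, adjusted p = 0.00721).

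In WT cells Bmp4 had 29.6, 37.8 and 28.3 CPM in LIF, against 0.796, 0.533 and 0 CPM in LIF/2i. The WT LIF/2i libraries held 5, 4 and 0 Bmp4 counts, close to the floor, while the WT LIF libraries held 183, 251 and 182. The log2 change was 5.97 ± 0.69, with an edgeR adjusted p of 0.000568, and it ranged between 5.63 and 6.46 with each library left out in turn, called every time. A fitted change of this size rests on 9 counts in WT LIF/2i and depends on the prior count.

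Between genotypes Bmp4 stood on opposite sides in the 2 media. In LIF/2i every KI library lay above every WT library, with means of 2.64 ± 1.70 CPM in KI cells and 0.443 ± 0.405 CPM in WT cells (SD, n = 3 each) and a log2 difference of 2.35 ± 0.72 (edgeR adjusted p = 0.106). DESeq2 called this Bmp4 difference (2.39, adjusted p = 0.0208), and without KI LIF/2i replicate 1 it was 1.64 in edgeR (adjusted p = 0.181). In LIF every KI library lay below every WT library, with means of 15.8 ± 8.67 CPM in KI cells and 33.4 ± 6.26 CPM in WT cells (SD, n = 3 and 2) and a log2 difference of -1.11 ± 0.52 (edgeR adjusted p = 0.483). The medium effect in KI cells minus that in WT cells was -3.46 ± 0.89 on the log2 scale, with an unadjusted p of 0.00224 and an edgeR adjusted p of 0.696. Groups that do not overlap were common, at 22.7% of all tested genes in LIF/2i and 31.7% in LIF.

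**Figure D1:**
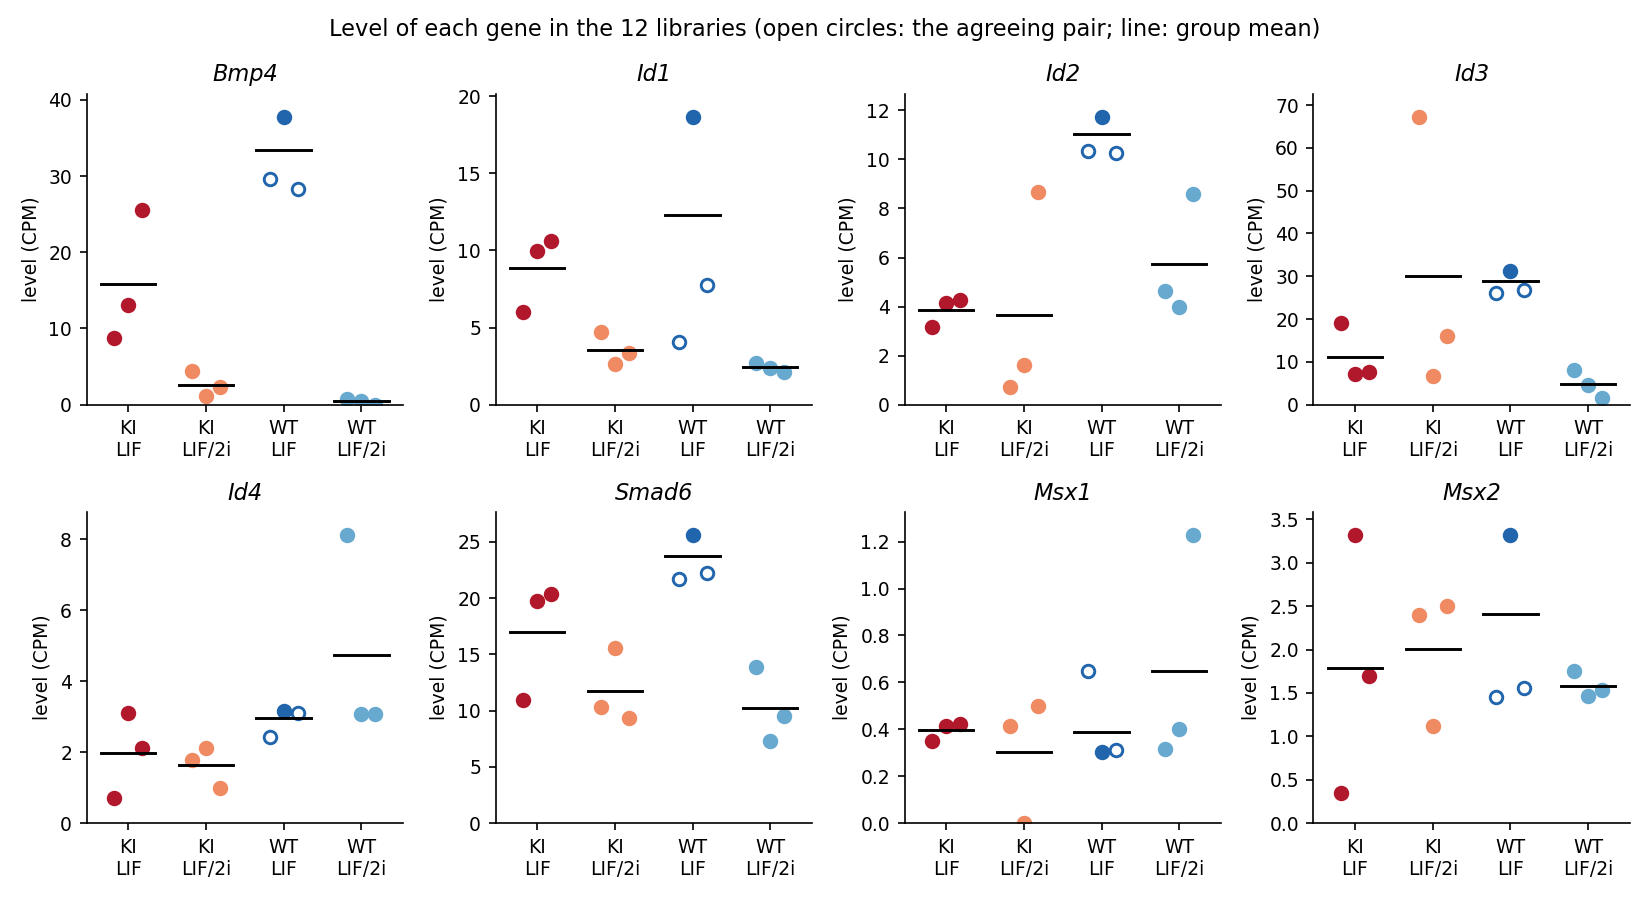
Level of each of the 8 genes (TMM-scaled CPM, vertical axis, own scale per gene) in each library of KI LIF, KI LIF/2i, WT LIF and WT LIF/2i. Points are libraries, open circles are the 2 WT LIF libraries counted as 1 sample, and lines are group means. Bmp4 reached 25.5 CPM in KI LIF and 37.8 CPM in WT LIF, and 1 KI LIF/2i library stood at 67.3 CPM for Id3.

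Id1, a classic direct target of BMP signalling, had 4.04, 18.7 and 7.78 CPM in WT LIF, against 2.71, 2.40 and 2.15 CPM in WT LIF/2i. All WT LIF libraries were above all WT LIF/2i libraries, as were those of 23.7% of all tested genes, and replicate 2 stood well above the agreeing pair. The log2 change was 2.34 ± 0.49, a 5.06-fold rise with an edgeR adjusted p of 0.00908. Without WT LIF replicate 2, which leaves only the agreeing pair in WT LIF, the Id1 change was 1.28 and was not called (adjusted p = 0.199). That library also had the highest summed level of 10 fibroblast markers, at 780 CPM, against 146 and 141 CPM in WT LIF replicates 1 and 3. The part of this in the Id1 result was not tested.

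In KI cells Id1 had 5.99, 9.96 and 10.6 CPM in LIF, against 4.68, 2.62 and 3.33 CPM in LIF/2i. The groups did not overlap, and the log2 change of 1.30 ± 0.44 was not called (edgeR adjusted p = 0.0919). Between genotypes Id1 differed by 0.55 ± 0.47 in LIF/2i and by -0.49 ± 0.47 in LIF, KI over WT on the log2 scale, with edgeR adjusted p of 0.528 and 0.775 and overlapping groups in both. Without WT LIF replicate 2 the difference in LIF was 0.57, so its direction turned on that library.

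**Figure D2:**
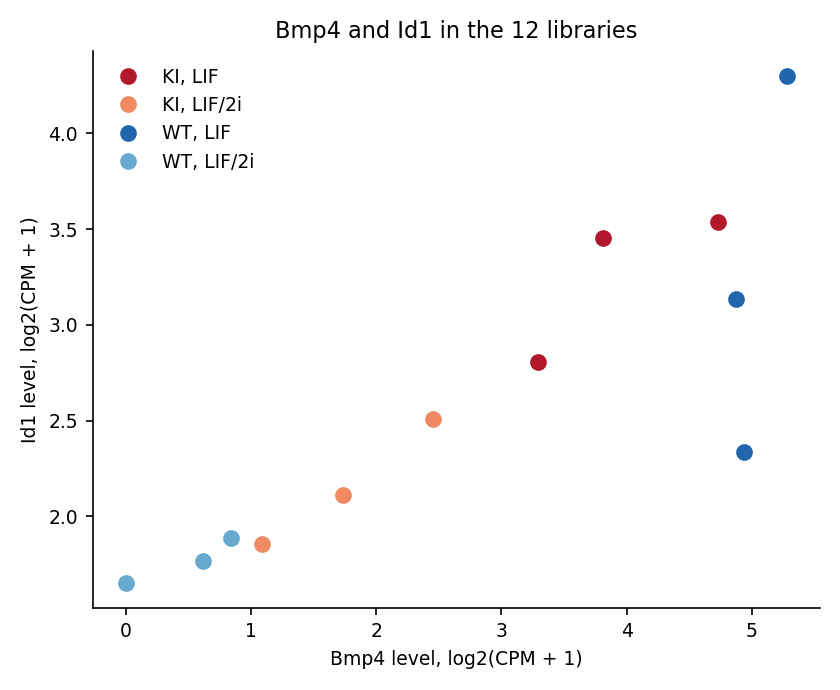
Id1 against Bmp4 in the 12 libraries, both as log2(CPM + 1), with a mark for each group. The LIF libraries lie to the upper right of the LIF/2i libraries of their own genotype, and WT LIF replicate 2, at 37.8 CPM of Bmp4 and 18.7 CPM of Id1, is highest on both axes.

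Id3 varied widely between libraries of KI LIF/2i. It had 67.3, 6.73 and 16.1 CPM in KI LIF/2i, against 8.12, 4.53 and 1.54 CPM in WT LIF/2i. The groups overlapped, and 1 KI library, with 647 counts, held most of the KI signal. The log2 difference was 2.61 ± 0.76 and was not called (edgeR adjusted p = 0.0930), but it was called by DESeq2 (2.65, adjusted p = 0.0457) and with the replicate block (2.35, adjusted p = 0.0426). The Id3 difference was 1.17 (adjusted p = 0.205) when KI LIF/2i replicate 1 was left out. In KI LIF/2i, replicate 1 also had a summed fibroblast marker level of 463 CPM, against 106 and 104 CPM in replicates 2 and 3. Vim alone reached 450 CPM in KI LIF/2i, so this excess was mostly 1 gene and not the list as a whole. Col1a1, Col1a2 and Acta2 were at most 10.5, 2.33 and 7.82 CPM in that group. The part of this in the Id3 values was not tested.

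In LIF, Id3 had 19.0, 7.05 and 7.65 CPM in KI cells, against 26.2, 31.3 and 26.8 CPM in WT cells. The groups did not overlap, and the log2 difference of -1.39 ± 0.80 was not called (edgeR adjusted p = 0.570). Between media, Id3 in WT cells averaged 28.9 ± 3.43 CPM in LIF and 4.73 ± 3.29 CPM in LIF/2i (SD, n = 2 and 3), a log2 difference of 2.54 ± 0.81 just outside the threshold (edgeR adjusted p = 0.0593). It was inside with the replicate block (2.78, adjusted p = 0.00547) and with 12 libraries counted separately (2.49, adjusted p = 0.0296). Both of these settings enter the agreeing WT LIF pair as separate samples. It was also inside without KI LIF/2i replicate 1 or 2 (2.53 each, adjusted p = 0.00830 and 0.0282). In KI cells Id3 averaged 11.2 ± 6.75 CPM in LIF and 30.1 ± 32.6 CPM in LIF/2i (SD, n = 3 each), and the groups overlapped, with a log2 difference of -1.46 ± 0.74 (edgeR adjusted p = 0.259). The difference between these medium effects was -4.01 ± 1.10, with an unadjusted p of 0.0033 and an edgeR adjusted p of 0.696. Without KI LIF/2i replicate 1 the Id3 difference between media in KI cells was -0.041 and the difference between medium effects -2.57.

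Id2 had 3.17, 4.15 and 4.25 CPM in KI LIF, against 10.3, 11.7 and 10.3 CPM in WT LIF. Both groups were tight and did not overlap, yet the log2 difference of -1.52 ± 0.75 was not called (edgeR adjusted p = 0.510). In LIF/2i the KI libraries were scattered, at 0.728, 1.62 and 8.66 CPM, against 4.62, 4.00 and 8.60 CPM in WT libraries. With this overlap the difference was -0.64 ± 0.68 on the log2 scale (edgeR adjusted p = 0.622). Single libraries moved it widely, to -2.24 without KI LIF/2i replicate 3 (adjusted p = 0.0773) and to -0.15 without KI LIF/2i replicate 1 (adjusted p = 0.895). LIF over LIF/2i gave 0.12 ± 0.72 in KI cells and 1.00 ± 0.72 in WT cells, with edgeR adjusted p of 0.945 and 0.414.

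Id4, which is best known from the developing nervous system, was the only member tested whose libraries all lay lower in KI than in WT cells in LIF/2i. Groups did not overlap, in either direction, for 22.7% of all tested genes in that comparison. Id4 had 1.77, 2.12 and 0.999 CPM in KI LIF/2i, against 8.12, 3.06 and 3.07 CPM in WT LIF/2i. The log2 difference was -1.52 ± 0.53 and was not called (edgeR adjusted p = 0.140). In LIF it had 0.705, 3.11 and 2.12 CPM in KI cells, against 2.43, 3.16 and 3.11 CPM in WT cells, with overlapping groups. LIF over LIF/2i was 0.32 ± 0.59 in KI cells and -0.68 ± 0.58 in WT cells, with edgeR adjusted p of 0.811 and 0.502.

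Smad6, the inhibitory SMAD, had 21.7, 25.6 and 22.3 CPM in WT LIF, against 13.8, 7.33 and 9.52 CPM in WT LIF/2i. The groups did not overlap, and the log2 change of 1.23 ± 0.35, a 2.34-fold rise, was called (edgeR adjusted p = 0.0372). The Smad6 call was close to the threshold and was lost without any of 5 single libraries, with changes of 1.22 and 1.23 without KI LIF replicate 2 or 3, 1.11 without WT LIF replicate 2, 1.01 and 1.18 without WT LIF/2i replicate 2 or 3, and also without both agreeing libraries (1.34, adjusted p = 0.109). In KI cells Smad6 had 10.9, 19.7 and 20.4 CPM in LIF, against 10.3, 15.6 and 9.32 CPM in LIF/2i. These overlapped, with a log2 difference of 0.53 ± 0.32 (edgeR adjusted p = 0.360). Between genotypes Smad6 differed by 0.21 ± 0.32 in LIF/2i and by -0.49 ± 0.35 in LIF, with edgeR adjusted p of 0.744 and 0.672, and the LIF groups did not overlap.

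The homeobox genes were close to the floor. Msx1 had 28 counts in the 12 libraries together, 4 in KI LIF, 7 in KI LIF/2i, 8 in WT LIF and 9 in WT LIF/2i, and no comparison of it was made. Msx2 had 0.352 to 3.32 CPM in KI LIF, 1.12 to 2.50 CPM in KI LIF/2i, 1.46 to 3.31 CPM in WT LIF and 1.47 to 1.75 CPM in WT LIF/2i. Its groups overlapped in the comparisons of genotype and of medium, with log2 differences between -0.33 and 0.61 and edgeR adjusted p of 0.608 or more.

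By comparison, all 7 tested members were below 0 for KI over WT in LIF, none with an unadjusted p under 0.05, and without WT LIF replicate 2 Id1 (0.57) and Msx2 (0.35) were above 0. Of the 7, 4 (Bmp4, Id2, Id3 and Smad6) had KI LIF libraries wholly below the WT LIF libraries, as did 15.1% of all tested genes. The median of the 7 was -0.52 on the log2 scale, beside 0 over all tested genes. In LIF/2i 5 members were above 0 and 2 below, with a median of 0.34 beside 0.02. For LIF over LIF/2i in WT cells 5 members (Bmp4, Id1, Id2, Id3 and Smad6) were higher without overlap, beside 23.7% of all tested genes. The comparisons between genotypes and between media share samples, so these counts are not independent of each other.

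**Figure D3:**
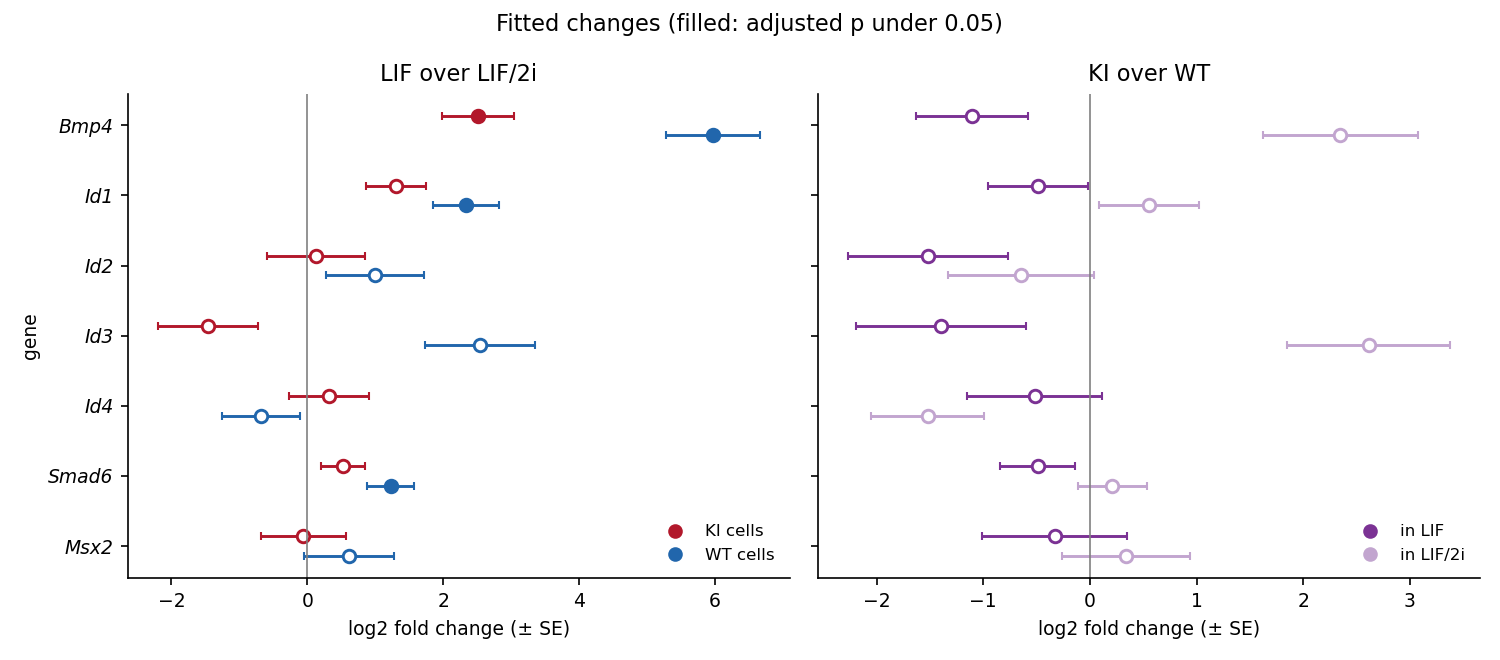
Log2 fold change (horizontal axis, bars are SE) of the 7 tested genes for LIF over LIF/2i in KI and WT cells and for KI over WT in LIF/2i and LIF. Filled points passed the edgeR adjusted p threshold of 0.05. Filled points are Bmp4 in KI cells (2.51) and Bmp4, Id1 and Smad6 in WT cells (5.97, 2.34 and 1.23).

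Per kilobase of coding sequence, Id3 had the highest mean level of the 8 in each group, at 31.5 CPM per kb in KI LIF, 84.2 in KI LIF/2i, 81.0 in WT LIF and 13.2 in WT LIF/2i. In KI LIF the order then ran Id1 (17.6), Bmp4 (12.9), Smad6 (11.5), Id2 (8.29), Id4 (4.10), Msx2 (2.23) and Msx1 (0.437 CPM per kb), and 6 of the 7 neighbouring pairs overlapped between samples. In KI LIF/2i Smad6 (7.90), Id2 (7.89) and Id1 (7.03) followed Id3, Id4 (3.37), Msx2 (2.50), Bmp4 (2.16) and Msx1 (0.336 CPM per kb) came after them, and 4 neighbouring pairs overlapped. In WT LIF the order after Id3 was Bmp4 (27.3), Id1 (24.4), Id2 (23.7), Smad6 (16.0), Id4 (6.14), Msx2 (3.01) and Msx1 (0.429 CPM per kb), and the 2 neighbouring pairs among Bmp4, Id1 and Id2 overlapped. In WT LIF/2i Bmp4 was last, at 0.362 CPM per kb, below Id2 (12.3), Id4 (9.84), Smad6 (6.89), Id1 (4.80), Msx2 (1.98) and Msx1 (0.714), and 5 neighbouring pairs overlapped. Bmp4 thus changed place most, standing second in WT LIF.

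Across the 11 samples, Pearson's r of log2(CPM + 1) was 0.92 between Bmp4 and Id1, 0.80 between Bmp4 and Smad6 and 0.77 between Id1 and Smad6. It was 0.56 between Bmp4 and Id3, 0.26 between Bmp4 and Id2 and -0.19 between Bmp4 and Id4. These values describe samples that share medium and genotype within groups, and the difference between media contributes to each. Among 10327 genes with a mean of at least 5 CPM, the patterns most like Bmp4 were those of Dusp4, Itga6 and Dusp6 (r = 0.95 each, 11 samples). The phosphatase Dusp6 and its relative Dusp4 act on MAP kinases, and Itga6 is a laminin receptor subunit. For Id1 they were Bmp1 (0.95), Akt1 (0.94) and Vgf (0.94), and for Smad6 Mgat4b (0.95), Aldh7a1 (0.92) and Sh3pxd2b (0.92). For Id2 they were Rab33b (0.91), Dab2 (0.90) and Ptgr1 (0.89), for Id3 Flrt3 (0.90), Rbm10 (0.89) and Snx17 (0.88), for Id4 Sh3tc2 (0.92), Liph (0.87) and Hnrnpul1 (0.87), and for Msx2 Map2k5 (0.78), Spsb2 (0.78) and Ivd (0.76).

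Upstream of the target genes, Bmp4 was the only called gene among the 5 BMP ligands tested of 14 listed, for LIF over LIF/2i in either genotype. The receptor list had 9 tested genes of 11. In KI cells edgeR called none of them, beside 9.05% of all tested genes in either direction, and DESeq2 called 1. An unadjusted p under 0.05 was found there for 2, beside 3134 of the 13229 tested genes. In WT cells edgeR called 2 lower in LIF than in LIF/2i, beside 13% of all tested genes in either direction. Acvr1, a type I receptor, averaged 11.3 ± 1.56 CPM in WT LIF and 25.7 ± 4.45 CPM in WT LIF/2i (SD, n = 2 and 3), a log2 change of -1.17 ± 0.30 with an edgeR adjusted p of 0.0245, and its call was lost in 4 alternative settings. Rgma, a BMP co-receptor, had 1.78, 5.72 and 2.96 CPM in WT LIF, against 32.1, 20.4 and 22.1 CPM in WT LIF/2i. Its log2 change of -2.60 ± 0.41 (edgeR adjusted p = 0.0025) was called in each of 19 alternative settings. In LIF/2i Rgma was also lower in KI cells, at 8.27 ± 2.26 CPM, than in WT cells, at 24.9 ± 6.35 CPM (SD, n = 3 each), with a log2 change of -1.57 ± 0.33 and an edgeR adjusted p of 0.0369 that was lost in 7 of 19 settings. Bmpr1a, the main type I receptor for BMP4, averaged 104 CPM in KI LIF, 118 in KI LIF/2i, 115 in WT LIF and 112 in WT LIF/2i. Bmpr2 averaged 47.3, 57.7, 54.1 and 75.6 CPM in KI LIF, KI LIF/2i, WT LIF and WT LIF/2i and was not called.

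The transducers Smad1, Smad4, Smad5 and Smad9 were all tested. In each comparison of genotype and of medium edgeR called 0 of 4, as did DESeq2. For KI over WT in LIF/2i 2 had an unadjusted p under 0.05, beside 2717 of the 13229 tested genes. For LIF over LIF/2i in WT cells 2 did, beside 3633 of all tested genes. Smad4, the shared partner, averaged 128 CPM in KI LIF, 130 in KI LIF/2i, 127 in WT LIF and 120 in WT LIF/2i. Smad1 averaged 40.0, 42.2, 32.8 and 38.7 CPM and Smad5 36.4, 32.0, 33.8 and 23.9 CPM in KI LIF, KI LIF/2i, WT LIF and WT LIF/2i. For LIF over LIF/2i, edgeR calls in either direction made up 9.05% of all tested genes in KI cells and 13% in WT cells. Of the 8 inhibitors inside the cell, Tob1, which binds SMADs and restrains BMP signalling in mouse bone cells, was called lower in LIF in both genotypes. It averaged 55.3 CPM in KI LIF and 97.5 CPM in KI LIF/2i (log2 change -0.82, edgeR adjusted p = 0.0119), and 46.7 CPM in WT LIF and 101 CPM in WT LIF/2i (-1.10, edgeR adjusted p = 0.00426). The Tob1 call was lost without KI LIF replicate 3 in KI cells (adjusted p = 0.0582) and without both agreeing libraries in WT cells (adjusted p = 0.0518). Smad7, the other inhibitory SMAD, averaged 112 CPM in KI LIF, 132 in KI LIF/2i, 105 in WT LIF and 124 in WT LIF/2i and was not called, nor was Bambi, a receptor decoy, at 6.92, 10.6, 10.6 and 16.4 CPM in those groups. Ski, a SMAD corepressor, was called lower in KI cells in LIF/2i, at 121 CPM against 236 CPM in WT cells (-0.95 ± 0.21, edgeR adjusted p = 0.0415), and lost the call in 10 of 19 settings. In that comparison edgeR called 2.21% of all tested genes in either direction.

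Of 16 secreted antagonists 6 were tested, and edgeR and DESeq2 each called 0 in every comparison. For KI over WT in LIF 1 had an unadjusted p under 0.05, beside 1418 of the 13229 tested genes. All 3 E proteins were tested and edgeR and DESeq2 called 0 in every comparison. For KI over WT in LIF/2i 1 had an unadjusted p under 0.05, beside 2717 of all tested genes. For LIF over LIF/2i in WT cells 1 did, beside 3633 of all tested genes. Tcf3, an E protein bound by ID proteins, averaged 267 CPM in KI LIF, 218 in KI LIF/2i, 242 in WT LIF and 237 in WT LIF/2i.

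Of 21 genes listed as BMP-induced, members included, 16 were tested. For LIF over LIF/2i in KI cells 1 was called higher and 1 lower, and in WT cells 3 were called higher and 1 lower, with medians of -0.14 in KI cells and 0.72 in WT cells, beside -0.03 and 0.01 over all tested genes. Calls by edgeR in either direction made up 9.05% of all tested genes in KI cells and 13% in WT cells. DESeq2 called 2 of the 16 in KI cells and 6 in WT cells, and its own share over all genes is not given here. Zfp423, a zinc finger cofactor of SMADs, had 141, 102 and 141 CPM in KI LIF, against 38.7, 30.2 and 11.3 CPM in KI LIF/2i. In WT cells it had 53.8, 66.0 and 53.4 CPM in LIF, against 11.3, 7.06 and 14.7 CPM in LIF/2i. Zfp423 rose by 2.23 ± 0.37 in KI cells and 2.49 ± 0.41 in WT cells (edgeR adjusted p of 0.00347 and 0.00321), and both calls held in every alternative setting. Tbx3, a T-box factor of naive cells, fell in LIF, at 178 CPM in KI LIF and 539 CPM in KI LIF/2i, and at 213 CPM in WT LIF and 512 CPM in WT LIF/2i. Its log2 changes were -1.61 ± 0.19 and -1.26 ± 0.22 in KI and WT cells (edgeR adjusted p of 0.000655 and 0.00385), and leaving out WT LIF replicate 2 ended the WT call (adjusted p = 0.0538). Dusp9, an ERK phosphatase that BMP induces in mouse embryonic stem cells, averaged 196 CPM in KI LIF and 110 CPM in KI LIF/2i, and 152 CPM in WT LIF and 67.7 CPM in WT LIF/2i, and missed the threshold in both (edgeR adjusted p of 0.151 and 0.0521). For KI over WT in LIF/2i the list had 1 edgeR call, beside 2.21% of all tested genes. It was Prdm1, a repressor needed for germ cells, at 9.64 CPM in KI cells against 32.8 CPM in WT cells. The log2 change was -1.75 ± 0.40 (edgeR adjusted p = 0.0478), and the call was lost in 9 of 19 settings. DESeq2 called 3 of the 16 there, and it also called more of all genes than edgeR did.

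**Figure D4:**
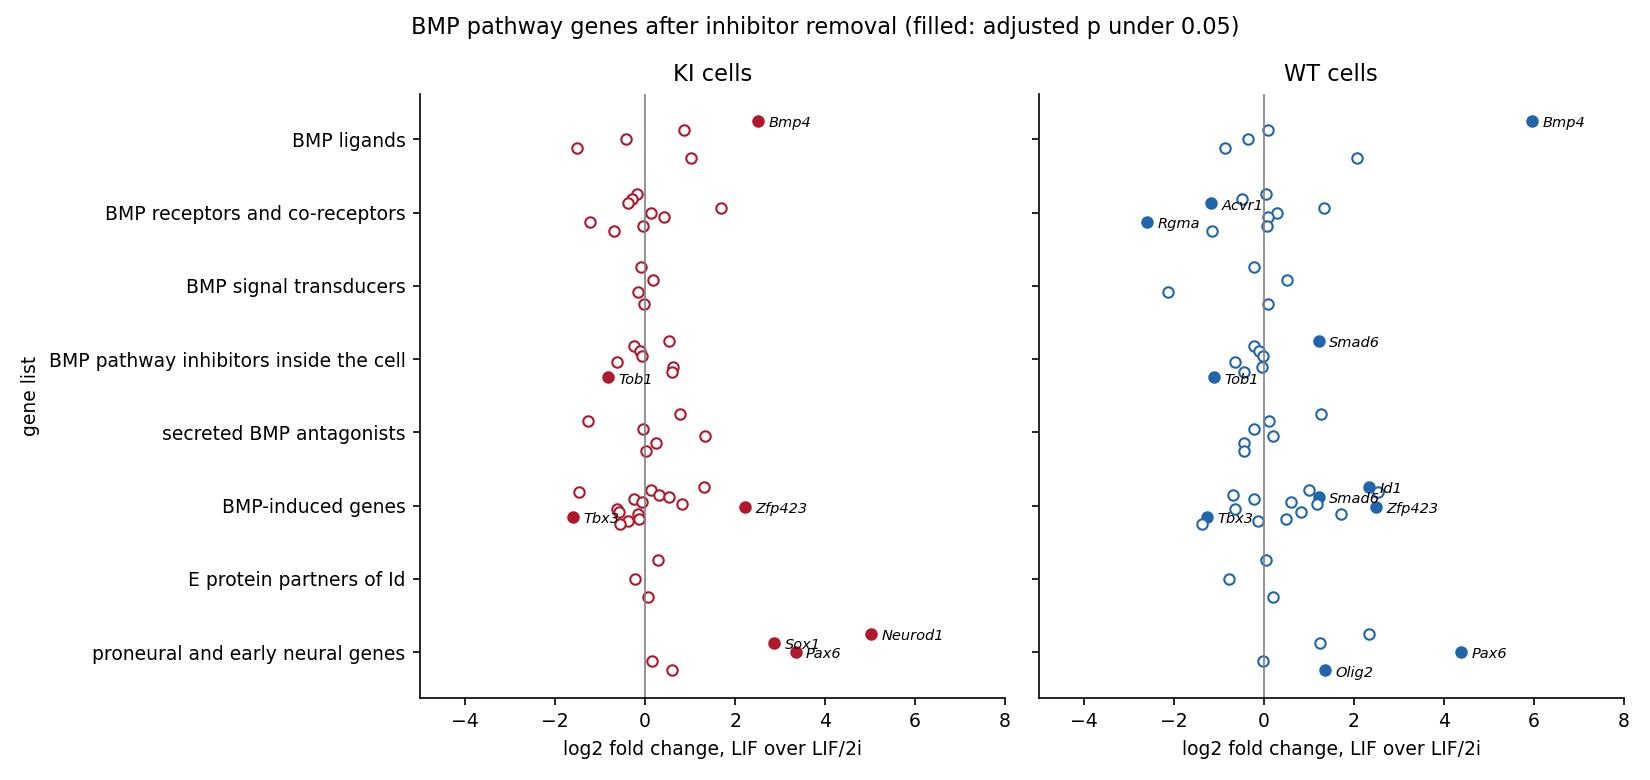
Log2 fold change of LIF over LIF/2i for the tested genes of the BMP, E protein and early neural lists, in KI and WT cells. Filled points passed the edgeR adjusted p threshold of 0.05. Bmp4 (2.51 in KI cells, 5.97 in WT cells) and Zfp423 (2.23 and 2.49) lie to the right in both genotypes, and Tbx3 (-1.61 and -1.26) and Tob1 (-0.82 and -1.10) to the left.

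Id genes are known for holding back neural genes, so 8 early neural genes were listed, of which 5 were tested. For LIF over LIF/2i 3 of the 5 were called higher in KI cells and 2 in WT cells, beside 4.05% and 6.3% of all tested genes. Neurod1, a neuronal differentiation factor, averaged 10.6 ± 9.22 CPM in KI LIF and 0.298 ± 0.0434 CPM in KI LIF/2i (SD, n = 3 each; log2 change 5.03, edgeR adjusted p = 0.00357). Sox1, an early neural plate gene, averaged 26.2 ± 14.9 CPM in KI LIF and 3.49 ± 2.91 CPM in KI LIF/2i (2.87, edgeR adjusted p = 0.0165). In WT cells Sox1 averaged 8.96 CPM in LIF and 3.85 CPM in LIF/2i, also without overlap and not called (1.24, edgeR adjusted p = 0.281). Pax6, a neural progenitor factor, averaged 3.54 CPM in KI LIF and 0.374 CPM in KI LIF/2i (3.35, edgeR adjusted p = 0.0298), and 4.03 CPM in WT LIF and 0.151 CPM in WT LIF/2i (4.38, edgeR adjusted p = 0.0125). Neurod1 in KI LIF/2i and Pax6 in both LIF/2i groups were near the floor, so the sizes of these changes depend on the prior count. Sox1 lost its call in 2 settings, and Pax6 in 5 of 20 in KI cells and 3 of 19 in WT cells. Nes was called in neither genotype (0.16 in KI cells and -0.02 in WT cells, edgeR adjusted p of 0.908 and 0.990). Olig2, an oligodendrocyte and motor neuron factor, was the other gene called in WT cells, at 25.4 CPM in LIF and 10.0 CPM in LIF/2i (1.36 ± 0.25, edgeR adjusted p = 0.00517, called in each of 19 settings). It was also called higher in KI than in WT cells, at 55.7 CPM against 10.0 CPM in LIF/2i (2.50 ± 0.23, edgeR adjusted p = 0.000391) and at 85.6 CPM against 25.4 CPM in LIF (1.74 ± 0.25, edgeR adjusted p = 0.0221, lost in 4 of 19 settings).

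Sums of marker levels of other cell types are given per group and were not tested. Single markers were in the edgeR test. In WT cells Krt8, Krt18, Krt7 and Hand1 (trophectoderm) were called higher in LIF. So were Col1a1, Col1a2, Col3a1 and Acta2 (fibroblast) and Cubn and Lama1 (primitive endoderm). In KI cells Krt8, Hand1, Col1a1, Col1a2, Acta2 and Cubn were called higher in LIF. Genes called higher made up 6.3% of all tested in WT cells and 4.05% in KI cells. Gsc (mesendoderm) was called lower in LIF in both genotypes, and Tead4 in KI cells. The sum of 11 primitive endoderm markers was 108 to 115 CPM in KI LIF and 56.3 to 70.3 CPM in KI LIF/2i. In WT cells it was 362 to 466 CPM in LIF and 95.7 to 204 CPM in LIF/2i. All 11 had at least 1 count in each group, but Foxa2 had only 2 in KI LIF and Sox7 only 2 in WT LIF/2i. Of the 9 tested, Lama1 was called lower in KI than in WT cells in LIF by edgeR, and none was called higher. The sum of 10 trophectoderm markers was 242 to 275 CPM in KI LIF, 194 to 267 CPM in KI LIF/2i, 385 to 498 CPM in WT LIF and 199 to 210 CPM in WT LIF/2i, with Elf5 at 0 in the KI groups. The sum of 7 neuroectoderm markers was 136 to 184 CPM in KI LIF, 83.0 to 117 CPM in KI LIF/2i, 64.4 to 81.3 CPM in WT LIF and 35.5 to 72.5 CPM in WT LIF/2i, with Neurog2 among those at 0 in the KI groups. The sum of 7 mesendoderm markers was 11.6 to 15.1 CPM in KI LIF, 17.2 to 27.9 CPM in KI LIF/2i, 19.6 to 20.6 CPM in WT LIF and 12.9 to 22.6 CPM in WT LIF/2i, with Evx1 at 0 in KI LIF and Mesp1 at 0 in WT LIF/2i. The sum of 10 fibroblast markers was 295 to 601 CPM in KI LIF, 104 to 463 CPM in KI LIF/2i, 144 to 780 CPM in WT LIF and 109 to 373 CPM in WT LIF/2i, with Lox at 0 in KI LIF/2i and Col3a1 at 0 in WT LIF/2i. Of the fibroblast markers, Vim alone reached 471 CPM in KI LIF, 450 in KI LIF/2i, 286 in WT LIF and 363 in WT LIF/2i. In WT LIF Col1a1 and Col1a2 also reached 168 and 204 CPM. Of the trophectoderm markers, Tfap2c averaged 167 CPM in KI LIF, 125 in KI LIF/2i, 228 in WT LIF and 123 in WT LIF/2i. The sums of these lists therefore depend much on 1 gene. Whether such cells were present, and their part in the levels of Bmp4, Id1 and Smad6, was not tested.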

How the data were processed

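RNA was taken from the supernatant of spun lysates of cells washed with cycloheximide, depleted of ribosomal RNA, fragmented and made into libraries as for ribosome profiling, per the labels' protocols. The matching ribosome profiling is not used here. The authors deposited 1 table of raw counts, in which each gene stands for the coding region of a single transcript, per the file headers. Tools named in the submitters' processing notes, with no roles, are UMI-tools 1.0.1, cutadapt 3.4 and Bowtie 1.3.0. Not given in the sources used here are the build, annotation and counting tool, and how strand and ambiguous reads were handled. Of 22416 genes 22155 transcripts were found in GENCODE M21, of which 21766 had the same symbol.

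Genes were kept by filterByExpr at a minimum count of 10. TMM scaling (factors 0.946 to 1.04) was followed by a fit in edgeR 4.0.16 (R 4.3.3, robust glmQLFit) with 1 mean per group over 11 samples. Each contrast had a two-sided quasi-likelihood test, adjusted by Benjamini-Hochberg over 13229 genes with a threshold of 0.05, and SE is the log2 fold change over the root of F. The biological coefficient of variation was 0.234. The test was checked on simulated data. Levels are TMM-scaled CPM, averaged over samples. Floors cover counting error only.

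The members and the gene lists were chosen with earlier results of these data known. Named were the 8 members, 10 preset pathway genes, every called gene of the lists (up to 12 per comparison) and, for each tested member, the 3 genes of most similar pattern. Marker lists were read by their summed levels, with edgeR calls of single markers given beside them.

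The groups share replicate numbers. Deviations from group means correlated at 0.524, 0.405 and 0.244 between same-numbered KI samples across media. The highest values with another number were -0.226, 0.0805 and 0.233, so replicate 3 hardly stood apart. The main fit, with its p-values for KI cells, did not use this pairing. It entered only as a block in alternative fits. Elsewhere some pair was always under 0.1, with values of -0.0897 to 0.131. Alternatives were DESeq2 1.42.0, its size factors, no filter, the replicate block, 12 libraries counted separately and leaving out libraries. Library totals alone and a block in the KI samples, for LIF over LIF/2i in KI cells and the interaction, were added after seeing the data.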

Additional observations from a re-analysis of the deposited data

Results flagged for a closer look

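Bmp4 stood on opposite sides between KI and WT cells in the 2 media, with no edgeR call in either. In LIF/2i each KI library was above each WT library, with a log2 difference of 2.35 ± 0.72 (edgeR adjusted p = 0.106), and in LIF each KI sample was below each WT sample, with a log2 difference of -1.11 ± 0.52 (edgeR adjusted p = 0.483). The difference was tested as an interaction of genotype and medium, which gave -3.46 ± 0.89 for the medium effect in KI minus WT cells, with an unadjusted p of 0.00224, an edgeR adjusted p of 0.696 and a DESeq2 adjusted p of 0.0659. The WT LIF/2i side of this rests on 9 Bmp4 counts in 3 libraries.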

How the results depend on the processing

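Of the members' alternative values 647 kept their direction and their side of the threshold, 7 passed it, 8 fell short and 17 turned. For KI over WT in LIF/2i the members called were 0, but 2 (Bmp4 and Id3) with DESeq2 and 1 (Id3) with the replicate block. Genes called there numbered 293, but 902 with DESeq2, 566 with the block, 522 with 12 libraries counted separately, 160 without both agreeing libraries and 64 to 996 with single libraries left out. For KI over WT in LIF 19 genes were called, but 190 with DESeq2, 31 with no filter, 174 with the block, 142 with 12 libraries counted separately, 2 without both agreeing libraries and 1 to 53 with single libraries left out. For LIF over LIF/2i in KI cells 1197 were called, but 1798 with the replicate block in the KI samples and 498 to 1337 with single libraries left out, and members called were 0 to 1. In WT cells 1714 were called, but 2856 with the block, 2737 with 12 libraries counted separately, 766 without both agreeing libraries and 390 to 2167 with single libraries left out, and members called were 1 to 4. For the interaction 0 genes were called by edgeR (791 at an unadjusted p under 0.05), but 19 with DESeq2, 2 with the block, 1 with 12 libraries counted separately, 1 without both agreeing libraries and 0 to 4 with single libraries left out. With single libraries left out in turn these log2 values, none called, changed sign: Smad6 for KI over WT in LIF/2i (-0.058 to 0.49), Id1 (-0.62 to 0.57) and Msx2 (-1.31 to 0.35) for KI over WT in LIF, Id2 (-0.38 to 1.72), Id4 (-0.29 to 0.70) and Msx2 (-1.03 to 0.40) for LIF over LIF/2i in KI cells, Msx2 in WT cells (-0.069 to 0.69), and Id1 (-1.20 to 0.014), Id2 (-1.38 to 0.72) and Msx2 (-1.64 to 0.00072) for the interaction. Library totals alone turned Msx2 in KI cells to 0.025. The block fit counted all 12 libraries. The cause of these changes was not tested. Leaving out a library outside the agreeing pair also lowered the number of samples. Low counts limit Bmp4 in WT LIF/2i, Id4, Msx1 and Msx2.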
